A study of Mus musculus with 14 samples.

Results

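A chosen set of Toll-like receptors, the co-receptors Cd14 and Ly96, and the adaptor Myd88 were followed in lung tissue of mice with a mammary tumour. Tlr5, Tlr8, Tlr9 and Tlr12 were also on the array and are given with the other genes of the pathway. All probe sets whose platform gene symbol was Tlr1, Tlr2, Tlr3, Tlr4, Tlr6, Tlr7, Tlr13, Cd14, Myd88 or Ly96 were taken, which gave 16 probe sets of 10 genes among 45101 probe sets. Tlr4 had 4 probe sets, Tlr7 had 3, Tlr3 had 2 and each of the other genes had 1. A probe set is a group of short oligonucleotides for 1 transcript, summarised as 1 intensity per array. The lungs came from BALB/c mice that carried 4T1 cells (4 arrays) or 67NR cells (5 arrays) in the fourth mammary fat pad, or that had received only PBS (5 arrays, called normal). 4T1 is a mouse breast carcinoma line described in the labels as metastatic, and 67NR is one described as nonmetastatic. Lungs were taken 6 days after tumour cell inoculation, or once tumours measured near 50 mm3, and all lungs were flushed with PBS to clear the vessels of blood. Each tumour class was represented by 1 cell line, no age or sex was used here, and the labels do not say that each numbered sample came from a mouse of its own. P-values therefore describe only how much these samples varied, which may be technical.

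Toll-like receptors are membrane proteins that recognise microbial molecules and some molecules released by damaged or inflamed tissue. TLR1, TLR2, TLR4 and TLR6 sit at the cell surface, whereas TLR3, TLR7 and TLR13 sit in endosomes and sense RNA. All of them except TLR3 signal through the adaptor MyD88, which leads to NF-kB activation and to inflammatory cytokines such as interleukin 1 beta. In lung, macrophages, monocytes, neutrophils and epithelium are known to use these receptors.

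The labelled tissue was checked against lung epithelium markers. The summed intensity of Sftpc, Sftpb, Ager and Scgb1a1 was 34789 to 43112 in 4T1, 36106 to 44276 in 67NR and 36217 to 44726 in normal lungs. Array medians ranged from 113.2 to 116.1. Within groups the root mean square log2 difference between arrays was 0.35 to 0.46 over all probe sets, so no array duplicated another of its group. In bulk tissue, fewer cells of a type and less RNA per cell cannot be told apart.

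RefSeq promoter sequence (GRCm38.p6) was held for 6 of the 10 genes. The 250 bases before the annotated start of Tlr13 and of Myd88 are shown, because these were the receptor that passed the test and the adaptor that all but 1 of the receptors share. Capitals mark the motif matches found by searching both strands for the NF-kB consensus, GAGGAA (the core of PU.1 sites), TTGCNNAA (a C/EBP form) and GAAANNGAA (an interferon response element form). The Tlr13 window lay at chrX:106143025-106143274 on the plus strand and the Myd88 window at chr9:119340019-119340268 on the minus strand.
Tlr13: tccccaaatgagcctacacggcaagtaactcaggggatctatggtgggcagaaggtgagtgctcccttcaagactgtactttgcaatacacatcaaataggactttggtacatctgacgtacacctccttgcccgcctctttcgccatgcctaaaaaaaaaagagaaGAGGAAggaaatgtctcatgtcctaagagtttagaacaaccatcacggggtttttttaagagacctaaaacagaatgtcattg
Myd88: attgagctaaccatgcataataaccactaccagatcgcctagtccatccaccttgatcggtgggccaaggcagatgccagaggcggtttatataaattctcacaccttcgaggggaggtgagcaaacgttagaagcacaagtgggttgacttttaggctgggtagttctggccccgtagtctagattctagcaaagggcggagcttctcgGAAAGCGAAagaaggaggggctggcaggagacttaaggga

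The Tlr13 window held 1 GAGGAA, and the Myd88 window held 1 GAAANNGAA. Among 32851 windows of this length, 23.3% held GAGGAA, 7.13% GAAANNGAA, 9.56% TTGCNNAA and 5.93% the NF-kB consensus. Of the other genes with a window, Tlr2 and Tlr3 had an NF-kB match, Tlr1 had GAGGAA, Tlr3 and Tlr6 had TTGCNNAA and Tlr6 had a pair of overlapping GAAANNGAA. A match describes these letters and was not tested as a binding site.

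Tlr13, a receptor for bacterial ribosomal RNA in mice, was the only member gene whose rise in 4T1 lungs passed the test. Its probe set 1457753_at measured 270, 246, 318 and 276 in 4T1 lungs and 213, 154, 159, 166 and 153 in 67NR lungs, against 145, 160, 187, 166 and 130 in normal lungs. The 4T1 arrays lay above every 67NR and every normal array, while 67NR and normal arrays overlapped. Intensity averaged 278 ± 30.2 in the 4T1 group (SD, n = 4). The 67NR group averaged 169 ± 25 and the normal group 157 ± 21.4 (SD, n = 5 each).

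Differences were fitted as log2(intensity + 16), so that folds of dim genes are understated, with limma over 10916 genes and with Benjamini-Hochberg adjustment. Genes with an adjusted p under 0.05 were called. Tlr13 was 1.70-fold higher in 4T1 than in normal lungs (log2 change 0.76, SE 0.107, limma adjusted p = 0.00237). It was 1.59-fold higher in 4T1 than in 67NR lungs (log2 0.67, SE 0.107, limma adjusted p = 0.00791). Between 67NR and normal lungs its log2 change was 0.09 (95% interval -0.12 to 0.31, limma adjusted p = 0.836). The call rested on 1 probe set, and a second fit over all 34958 probe sets with 1 symbol gave adjusted p of 0.0116 against normal and 0.031 against 67NR lungs. In that wider limma fit without 4T1 replicate 3 the calls were lost, with adjusted p of 0.0505 against normal and 0.0966 against 67NR lungs. The 67NR comparison in that fit also missed the threshold without 4T1 replicate 1 or 4, 67NR replicate 2, 3, 4 or 5, or normal replicate 2 or 4, with limma adjusted p of 0.0506 to 0.103. Both calls were missed there when only the pair of groups compared was fitted (limma adjusted p = 0.0528 against normal and 0.091 against 67NR lungs). In the fit over genes without 4T1 replicate 3 the calls held, with log2 changes of 0.70 (limma adjusted p = 0.0131) and 0.605 (limma adjusted p = 0.0288).

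**Figure D1:**
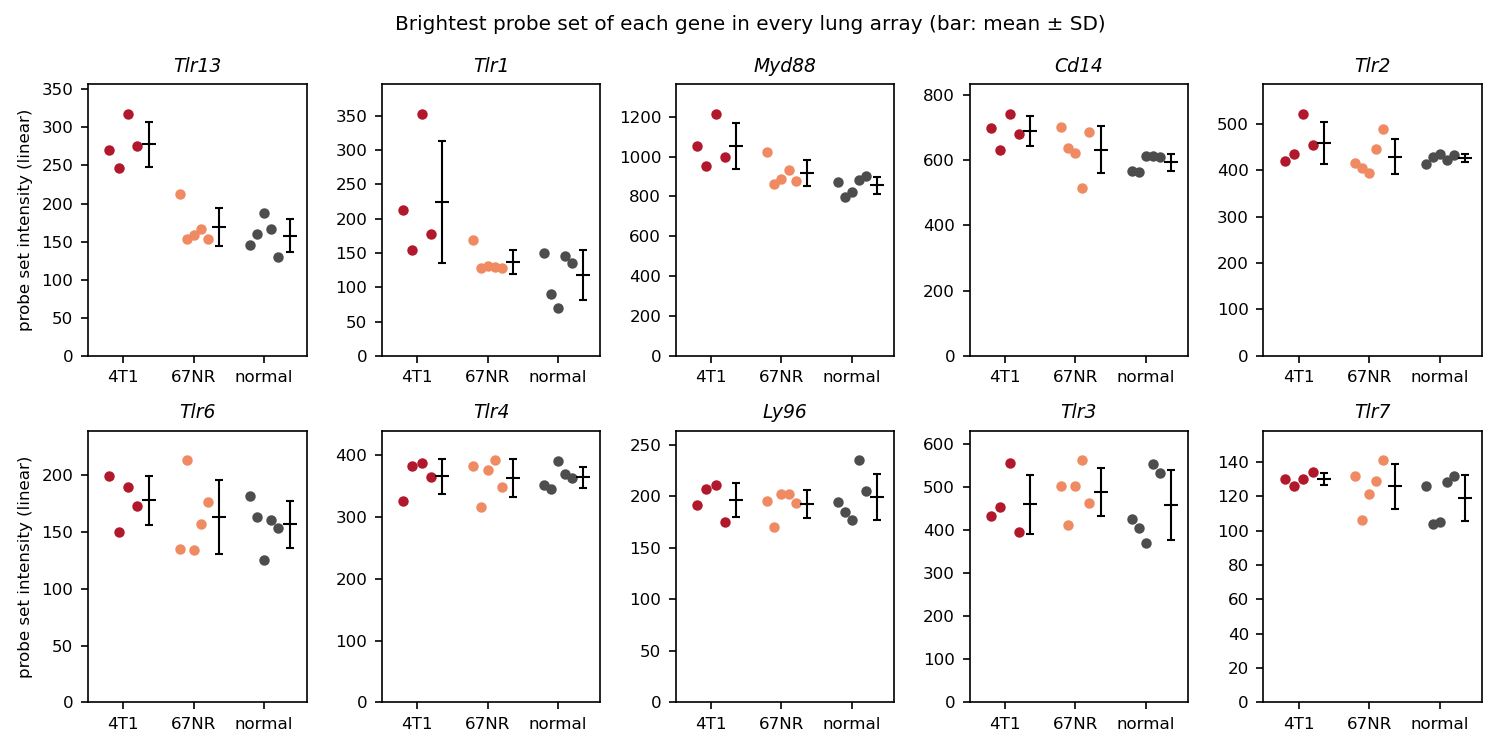
Intensity of the brightest probe set of each of the 10 genes (y axis, linear units from 0) on every array of 4T1, 67NR and normal lungs, with mean and SD beside the points. All 4 Tlr13 points of 4T1 lungs, 246 to 318, sit above the 213 that was highest in 67NR lungs.

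Of the 8 member genes bright enough for the fit over genes, 1 was called in 4T1 against normal lungs, where 0.412% of all genes tested were. In 67NR against normal lungs 0 of 8 were called, where 0 of all genes were. There 997 genes (9.13%) had an unadjusted limma p under 0.05, and 0 of these were members. That share is too small for 0 of 8 members to stand out. In 4T1 against 67NR lungs 1 of 8 was called, against 0.760% of all genes. The median log2 change of the 8 genes was 0.13 in 4T1 against normal lungs and 0.06 in 67NR against normal lungs, beside -0.001 for all genes in each. Both comparisons share the normal arrays. Tlr1 and Tlr7 had mean log2 levels of 7.34 and 7.13, below the 7.35 needed for that fit.

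In the fit over probe sets, which tested all 16, 1 was called against normal lungs (0.186% of all probe sets), 0 in 67NR against normal lungs (0.00286%) and 1 in 4T1 against 67NR lungs (0.217%). The 4T1 arrays lay above all normal arrays for 4 of the 16, those of Tlr13, Tlr1, Myd88 and Cd14, beside 1.10% of all probe sets. They lay above all 67NR arrays for 1 of the 16, that of Tlr13, beside 1.39%. No member probe set separated 67NR from normal arrays.

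**Figure D2:**
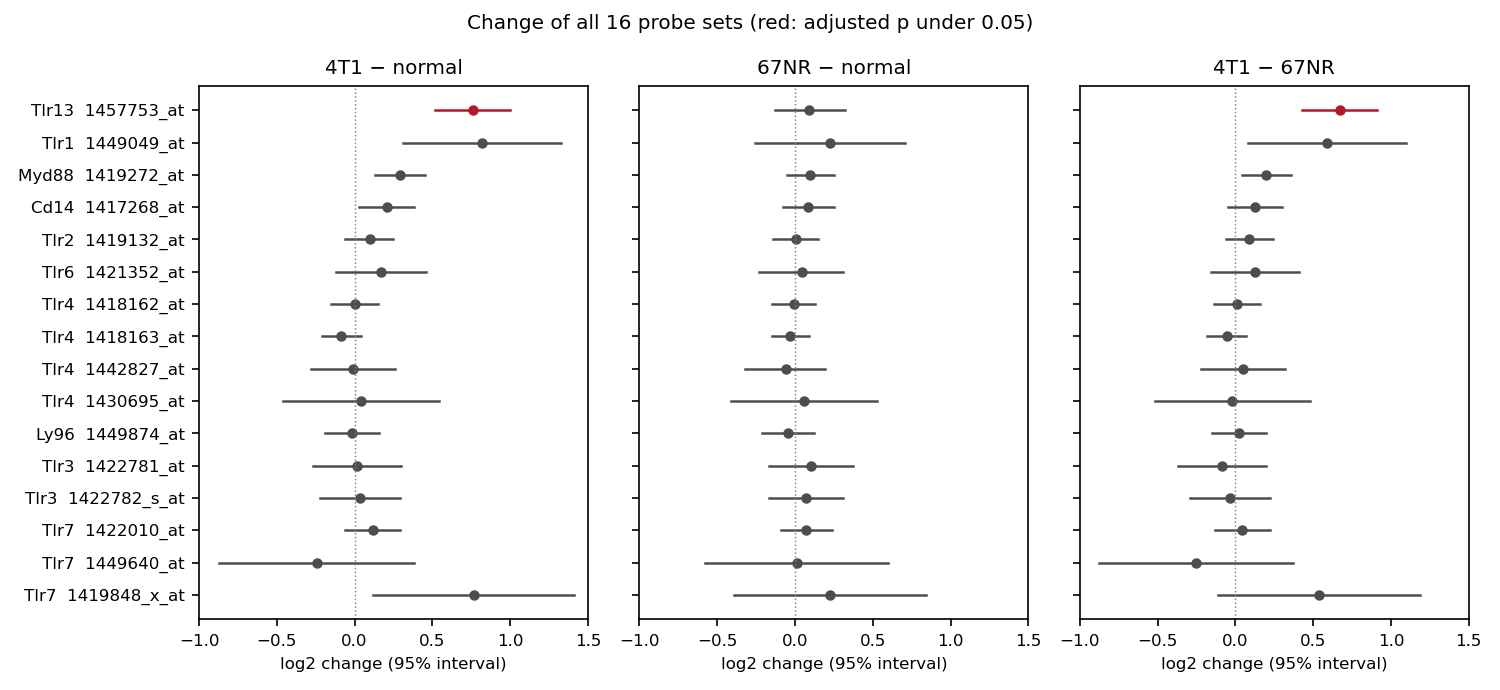
Log2 change with its 95% interval (x axis) for each of the 16 probe sets (y axis) in 4T1 against normal, 67NR against normal and 4T1 against 67NR lungs. Only Tlr13 1457753_at passed an adjusted p of 0.05, in the panels of 4T1 against normal and 4T1 against 67NR lungs.

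The surface receptors for bacterial lipopeptides are TLR2 and its partners TLR1 and TLR6, and Tlr1 and Tlr6 are neighbouring genes. Tlr1 (1449049_at) measured 213, 154, 353 and 177 in 4T1 lungs and 169, 128, 131, 129 and 128 in 67NR lungs, against 150, 90.6, 69.2, 146 and 136 in normal lungs. The 4T1 arrays lay above all normal arrays but overlapped 67NR, and replicate 3 was the highest of the 4T1 arrays. Its log2 change against normal lungs was 0.82 (SE 0.236, 95% interval 0.31 to 1.33), with a limma adjusted p of 0.506 over all probe sets. Without 4T1 replicate 3 the change was 0.59 with a limma adjusted p of 0.842.

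Tlr2 (1419132_at) measured 419, 435, 522 and 455 in 4T1 lungs and 416, 404, 393, 445 and 489 in 67NR lungs, against 414, 429, 434, 421 and 432 in normal lungs. The groups overlapped. The log2 change in 4T1 against normal lungs was 0.10 (95% interval -0.05 to 0.24). Tlr6 (1421352_at) measured 199, 150, 189 and 173 in 4T1 lungs and 135, 213, 134, 157 and 176 in 67NR lungs, against 181, 163, 125, 160 and 153 in normal lungs. These groups overlapped too, and the log2 change in 4T1 against normal lungs was 0.17 (95% interval -0.10 to 0.44).

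TLR4 recognises bacterial lipopolysaccharide with the help of MD-2, encoded by Ly96, and of CD14, which hands the lipid over. Tlr4 (1418162_at) measured 326, 383, 388 and 365 in 4T1 lungs and 383, 316, 376, 392 and 348 in 67NR lungs, against 352, 346, 390, 370 and 363 in normal lungs. The groups lay on top of each other, and the log2 change in 4T1 against normal lungs was 0.003 (95% interval -0.14 to 0.15), so a change beyond that interval was not seen. The other 3 Tlr4 probe sets gave log2 changes of -0.09, -0.01 and 0.04 in the same comparison, and none was called. The dimmest of them, 1430695_at, measured 16 to 19.2 in 4T1 lungs and 6.59 to 27.7 in 67NR lungs, against 5.12 to 31.2 in normal lungs, at the 16.1 percentile of probe set brightness.

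Ly96 (1449874_at) measured 191, 207, 211 and 175 in 4T1 lungs and 195, 170, 202, 202 and 193 in 67NR lungs, against 194, 185, 177, 235 and 205 in normal lungs. The groups overlapped, with a log2 change of -0.02 in 4T1 against normal lungs (95% interval -0.19 to 0.15). Cd14 (1417268_at) measured 699, 632, 743 and 680 in 4T1 lungs and 702, 637, 622, 516 and 687 in 67NR lungs, against 567, 565, 614, 613 and 609 in normal lungs. The 67NR arrays overlapped both other groups. All 4T1 arrays lay above the normal arrays, by as little as 18 units, but the log2 change of 0.21 (SE 0.078, 95% interval 0.04 to 0.37) had a limma adjusted p of 0.596.

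The adaptor Myd88 (1419272_at) measured 1055, 952, 1216 and 997 in 4T1 lungs and 1023, 862, 888, 931 and 878 in 67NR lungs, against 874, 796, 825, 883 and 901 in normal lungs. No normal array reached the lowest 4T1 array, and 67NR replicate 1 lay among the 4T1 arrays. The log2 change in 4T1 against normal lungs was 0.29 (SE 0.071, 95% interval 0.14 to 0.45), which ranked 73 by p among all genes, with an unadjusted p of 0.00105 and a limma adjusted p of 0.157. Against 67NR lungs it was 0.20 (limma adjusted p = 0.260), and in 67NR against normal lungs it was 0.10 (limma adjusted p = 0.711).

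Tlr3, which senses double-stranded RNA, measured 434, 455, 557 and 395 at 1422781_at in 4T1 lungs and 503, 412, 502, 563 and 463 in 67NR lungs, against 426, 406, 370, 554 and 533 in normal lungs. All 3 groups overlapped. Its second probe set, 1422782_s_at, had a log2 change of 0.03 in 4T1 against normal lungs, beside 0.01 for the first. Neither was called in any comparison.

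Tlr7, which senses single-stranded RNA, measured 130, 126, 130 and 134 at 1422010_at in 4T1 lungs and 132, 106, 121, 129 and 141 in 67NR lungs, against 126, 104, 105, 128 and 132 in normal lungs. The groups overlapped, and the log2 change in 4T1 against normal lungs was 0.12 (95% interval -0.06 to 0.29). The other 2 probe sets were dim and disagreed in sign. The change at 1449640_at was -0.24, and that at 1419848_x_at was 0.77 (unadjusted p = 0.0242, limma adjusted p = 0.757). At 1419848_x_at the 4T1 arrays measured 70.7, 8.81, 10.8 and 40.9 and the 67NR arrays 9.25 to 21.3, against 8.25 to 9.98 in normal lungs. The higher mean thus came from 2 of 4 arrays, and an x in such a name marks probes that may match other transcripts.

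**Figure D3:**
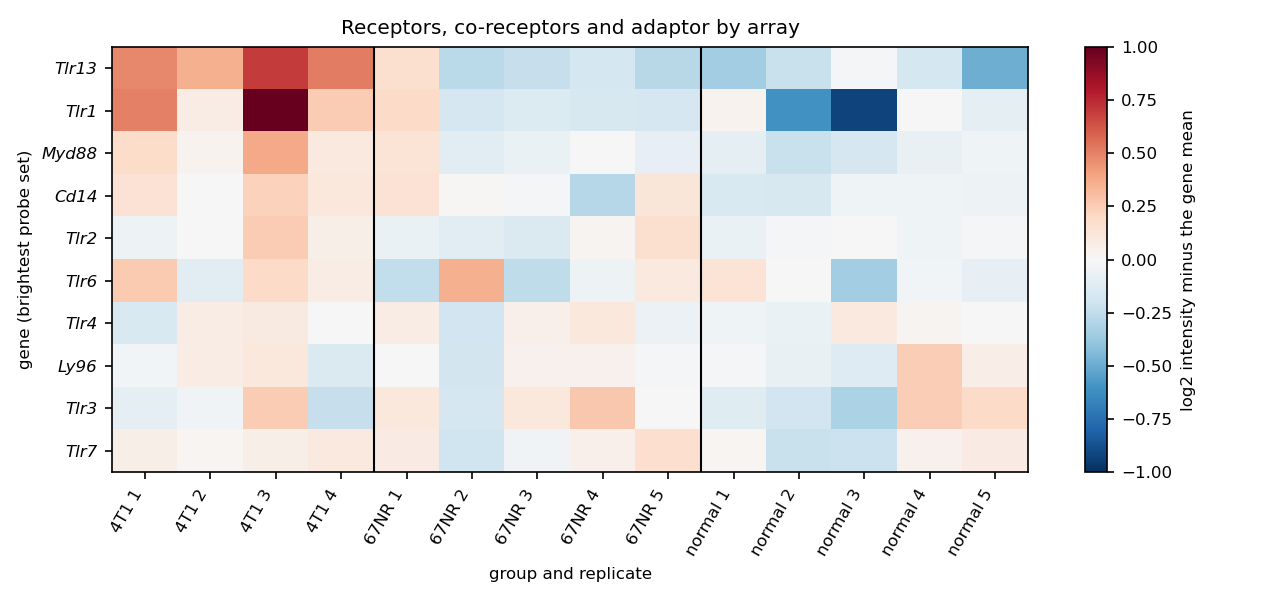
Log2 intensity minus the gene's mean over all 14 arrays (colour, -1 to 1) for the 10 genes (rows) on each array (columns, 4T1, 67NR and normal). The column of 4T1 replicate 3 is red for nearly all genes, with a mean of 0.346.

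The genes were not equally high on the 4T1 arrays. Replicate 3 was the highest 4T1 array for 8 of the 10 genes, whereas it was highest for 32.4% of all genes tested. The mean of the 10 centred log2 values was 0.13, 0.048, 0.346 and 0.083 in the 4T1 arrays. It was 0.057, -0.103, -0.069, -0.016 and -0.007 in the 67NR arrays, and -0.063, -0.177, -0.207, 0.02 and -0.043 in the normal arrays. Replicate 3 was also the highest 4T1 array for the summed markers of monocytes and interstitial macrophages (8777), dendritic cells (1356), B cells (3199) and T and NK cells (1364), and for those of blood, fat and muscle carried along (6449). It was the lowest for lung epithelium (34789) and endothelium (21707). The part of these markers in the member values was not tested.

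Markers of neutrophils, like Tlr13, were higher in the 4T1 group than in the other groups. Of the 14 listed neutrophil genes 13 were measured. Their summed intensity was 33551, 25610, 32443 and 35541 in 4T1 lungs and 10805, 6982, 8256, 8152 and 7202 in 67NR lungs, against 7409, 5365, 6101, 7817 and 9116 in normal lungs. S100a8 and S100a9 made up most of this sum on every array. In 4T1 replicate 1, for example, they measured 11774 and 11451. The sum thus follows mainly these genes rather than all 13 equally. Of 11 neutrophil markers tested, 8 were called higher in 4T1 than in normal lungs, with a median log2 change of 1.89, and 8 of 11 in 4T1 against 67NR lungs. None was at 0, and the dimmest in 4T1 lungs, Il1r2, averaged 170, while Camp averaged 8.56 in 67NR and 9.65 in normal lungs.

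Within the 4T1 arrays the order of the neutrophil sum was in part that of Tlr13. Tlr13 was highest in replicate 3, while the sum was highest in replicate 4. Replicate 2 was lowest for both, with a Tlr13 intensity of 246 and a sum of 25610. Replicates 4, 1 and 2 came in the same order for both. In the 67NR group, replicate 1 was highest for both, with a Tlr13 intensity of 213 and a sum of 10805, and it was also highest for the monocyte and interstitial macrophage (8240), dendritic cell (1338), B cell (2337) and T and NK cell (1260) sums. In the normal group the order differed: replicate 5 had the highest neutrophil sum (9116) and the lowest Tlr13 (130), and replicate 3 had the highest Tlr13 (187) with a sum of 6101. Of 9 monocyte and interstitial macrophage markers, 1 was called higher in 4T1 than in normal lungs (Fcgr4, log2 0.41, limma adjusted p = 0.0475), with a median of 0.12. In 4T1 against 67NR lungs 0 of these 9 markers were called, with a median of 0.002. Their sum was 6988 to 8777 in 4T1, 7148 to 8240 in 67NR and 6340 to 7592 in normal lungs. Alveolar macrophage markers had a median log2 change of -0.02 in 4T1 against normal lungs, with 0 of 5 called. The part of these cell markers in the Tlr13 result was not tested.

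**Figure D4:**
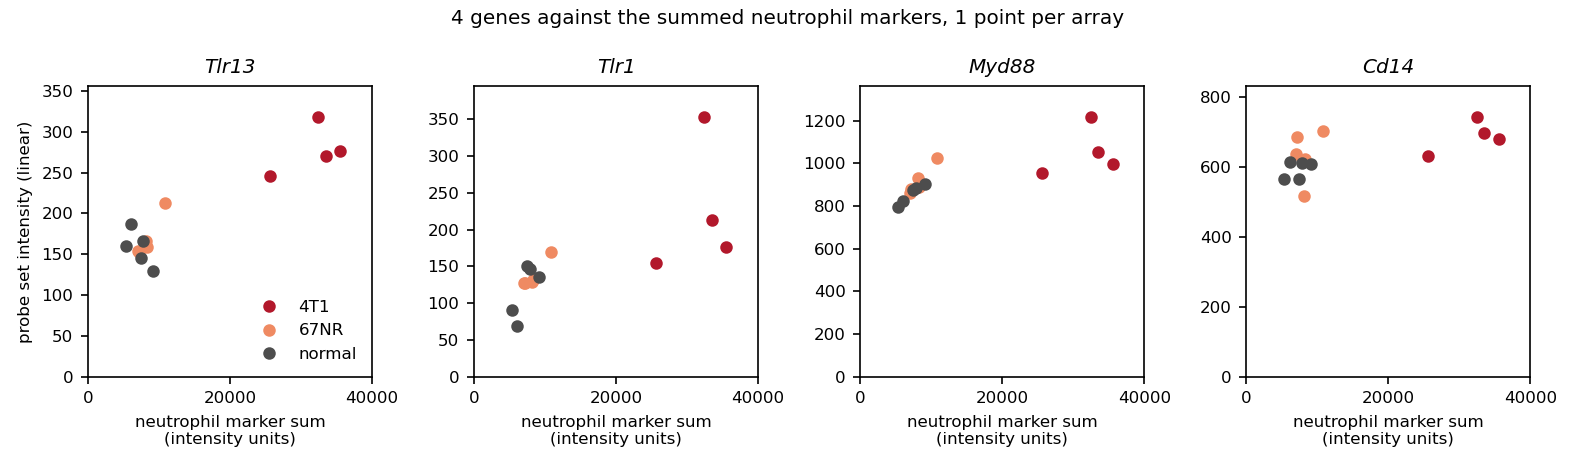
Probe set intensity of Tlr13, Tlr1, Myd88 and Cd14 (y axis, linear units from 0) against the summed intensity of the 13 neutrophil markers (x axis, same units), with 1 point per array of 4T1, 67NR and normal lungs. The 4T1 arrays lie at 25610 to 35541 and all others at 5365 to 10805.

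The 3 genes whose pattern over the 14 arrays was closest to Tlr13 were Lrg1, Selplg and Fgl2. Closeness was the root mean square difference of log2 values centred on each gene's mean, which was 0.126 for Lrg1, 0.173 for Selplg and 0.174 for Fgl2, beside a median of 0.378 over all genes. Lrg1 encodes a secreted leucine-rich glycoprotein and Selplg the P-selectin ligand of leukocytes. Fgl2 encodes a fibrinogen-like protein with prothrombinase activity. Their log2 changes in 4T1 against normal lungs were 0.83, 0.74 and 0.72. Since these genes were picked for likeness to Tlr13 on the same arrays, the similar changes follow from the choice.

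Other genes of the pathway were read from 6 lists naming 72 genes; 65 were on the array under their own symbol and 47 were bright enough for the fit. In 4T1 against normal lungs 3 of the 47 were called higher and 0 lower, with a median log2 change of -0.008. In 67NR against normal lungs 0 were called, and in 4T1 against 67NR lungs 3 were called higher and 0 lower. The called genes were S100a8 and S100a9, which encode the subunits of calprotectin, described as an endogenous TLR4 ligand, and Il1b, the interleukin 1 beta gene that these receptors can induce. S100a8 and S100a9 are also on the neutrophil list.

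S100a8 measured 11774, 9333, 11658 and 12329 in 4T1 lungs and 3422, 2202, 2569, 2718 and 2254 in 67NR lungs, against 2434, 1482, 1671, 2686 and 2820 in normal lungs. Only the 4T1 arrays stood apart, by 2.38 on the log2 scale from normal lungs (SE 0.186, limma adjusted p = 5.35e-06). S100a9 had a log2 change of 2.48 in 4T1 and 0.26 in 67NR against normal lungs, the second with a limma adjusted p of 0.703. Il1b measured 2407, 1444, 3085 and 2170 in 4T1 lungs and 1063, 530, 787, 740 and 645 in 67NR lungs, against 768, 637, 474, 570 and 862 in normal lungs. Its log2 change in 4T1 against normal lungs was 1.74 (SE 0.227, limma adjusted p = 0.00117) and against 67NR lungs 1.56 (limma adjusted p = 0.0037). Saa3, an acute phase protein and reported TLR4 ligand, had a log2 change of 0.45 in 4T1 against normal lungs that missed the threshold (limma adjusted p = 0.600).

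At the brightest probe set of each gene, the lists held no other called gene in 4T1 against normal lungs. All 7 co-receptor and receptor trafficking genes, among them Unc93b1, which carries endosomal receptors to their compartment, lay between -0.06 and 0.07 on the log2 scale in 4T1 against normal lungs, and 0 were called. Of 18 adaptor and signal relay genes, 0 were called, with a median of -0.01 and a range of -0.17 to 0.19, from the kinase Irak2 to the ubiquitin ligase Peli2. Of 6 negative regulators 0 were called, and the lowest was Atf3 at -0.37 (limma adjusted p = 0.81). Of 9 inducible targets 1 was called, Il1b, and Ptgs2 gave -0.34 (limma adjusted p = 0.853).

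Among the other Toll-like receptors, Tlr5, the flagellin receptor, measured 298, 234, 233 and 195 in 4T1 lungs and 214, 314, 269, 172 and 308 in 67NR lungs, against 311, 259, 259, 247 and 276 in normal lungs. Its log2 change was -0.17 (limma adjusted p = 0.954), and the groups overlapped. Tlr8, Tlr9 and Tlr12 were below the level tested and gave -0.03, -0.20 and -0.08, and Tlr11 was not analysed here.

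**Figure D5:**
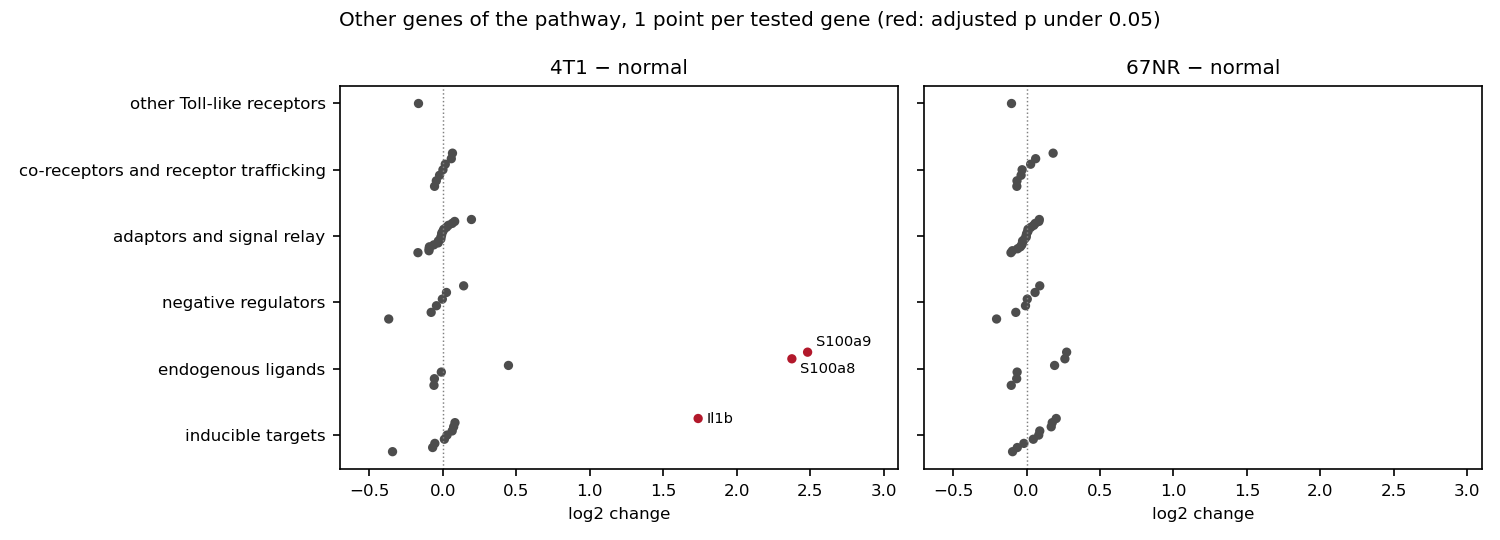
Log2 change (x axis) of each tested gene in the 6 pathway lists (y axis) in 4T1 against normal and 67NR against normal lungs. Each gene has 1 point, from its brightest probe set. S100a9 (2.48), S100a8 (2.38) and Il1b (1.74) stand to the right in 4T1 lungs, and all points lie from -0.20 to 0.27 in 67NR lungs.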

How the data were processed

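Total RNA of 14 lung samples was hybridised, per the labels' protocols, after 3 µg of it was converted to biotin-labelled cRNA by Affymetrix's procedure. The deposited table held linear intensities of 45101 probe sets, whose summarisation, background correction and normalisation, and whose genome build, are not given in the sources used here. Symbols were those of a 2016 platform annotation: 34958 probe sets had 1 symbol, 932 had several and 9211 were unnamed here, and those with 1 symbol were used.

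Intensities were taken as log2(intensity + 16). Each gene was represented by its brightest probe set, the 60% of genes with the highest mean level entered the test, and 1 mean per group was fitted with limma 3.58.1 in R 4.3.3 (11 residual degrees of freedom, Benjamini-Hochberg adjustment). The same fit ran over all probe sets with 1 symbol. The steps were tested on simulated data in which each value was drawn independently, so shifts shared by many genes of an array were not covered. The number of arrays limits the precision.

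The members and gene lists were chosen with earlier results of these data known. All members were named, with genes called in each list (at most 3), other Toll-like receptors, S100a8, S100a9 and Saa3, and the 3 genes closest to a called member. Values outside this rule (Fcgr4, Unc93b1, Irak2, Peli2, Atf3, Ptgs2, Il1r2 and Camp) were chosen after they were seen. Alternatives covered normalisation, offset, filter, variance model, groups fitted, replicate block and leaving out arrays. Sequences came from RefSeq (GRCm38.p6).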

Additional observations from a re-analysis of the deposited data

Results flagged for a closer look

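Among 48 sets of 4 or 5 arrays of 1 probe set, 3 held an array apart from its group by Dixon's test, where chance gives about 1 in 20. In 67NR lungs, replicate 1 was the highest for Tlr1 at 169, with the other arrays at 128 to 131 (gap over range 0.933), and for Tlr13 at 213, with the others at 153 to 166 (0.752). That array was also the highest of the 67NR arrays for the summed markers of neutrophils (10805), monocytes and interstitial macrophages (8240), dendritic cells (1338), B cells (2337) and T and NK cells (1260). Ly96 in 67NR replicate 2 was the lowest at 170, with the others at 193 to 202 (0.724). That array had the lowest neutrophil (6982) and alveolar macrophage (8909) sums of its group. It had the highest sums for lung epithelium (44276) and for blood, fat and muscle carried along (6742).

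The change of Tlr13 in 4T1 lungs exceeded that in 67NR lungs by 0.67 on the log2 scale, which is the direct comparison of the 4T1 with the 67NR arrays. It passed in the limma fit over genes (adjusted p = 0.00791) and in that over probe sets (adjusted p = 0.031). In the fit over probe sets it held in 11 of 22 alternatives, with limma adjusted p of 0.0092 to 0.113. Without 67NR replicate 1 it was 0.75, and the Tlr13 difference between 67NR and normal lungs was then 0.013.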

How the results depend on the processing

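In the fit over genes, Tlr13 was called in all 23 alternatives that tested it, with log2 changes of 0.626 to 0.82 against normal and 0.554 to 0.751 against 67NR lungs (limma adjusted p of 0.00061 to 0.0131 and of 0.00141 to 0.0296). When the filter kept the brightest 40% of genes, Tlr13 was not tested and 0 members were called in either comparison. In the fit over probe sets, 0 were called when each fit held just the pair of groups compared, where limma adjusted p was 0.0528 against normal and 0.091 against 67NR lungs, and 0 with a replicate block (0.0598 and 0.113). Leaving out 1 array gave 0 to 1 in both comparisons, with 0 against normal lungs without 4T1 replicate 3, and 0 against 67NR lungs without 4T1 replicate 1, 3 or 4, 67NR replicate 2, 3, 4 or 5, or normal replicate 2 or 4. Deviations of same-numbered arrays from their group means had correlations of -0.34 to 0.22. These were not set beside other pairs of arrays, so they cannot decide whether the numbers pair samples. The numbers were not treated as pairs in the main fits. In 67NR against normal lungs 0 members were called throughout. Of 1050 single values recomputed, 888 were tested in both fits: 874 kept their side of the threshold and 14, all of the Tlr13 probe set, lost the call. The other 162, most of them Tlr1 and Tlr7 below the level filter, had no adjusted p in one fit or both. Over all of them, 37 that were not called changed sign. The counts over all genes ranged from 26 to 67 against normal lungs (45 as reported), 41 to 170 in 4T1 against 67NR lungs (83) and 0 to 11 in 67NR against normal lungs (0, with 997 genes at an unadjusted p under 0.05). Over probe sets they ranged from 37 to 84 (65), 33 to 95 (76) and 0 to 5 (1). Without detection calls, signal over background was unknown for the dim Tlr7 and Tlr4 probe sets.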
